A study of Mus musculus with 32 samples.

Results

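Kidneys of NZM2410 mice in remission were compared with kidneys of untreated NZB/W mice, 13 of the 32 kidneys measured in the series. They were chosen by their titles alone. NZM2410 is an inbred strain derived from a cross of NZB and NZW mice, and NZB/W mice are the first-generation hybrids of the same parents. Both strains develop lupus nephritis. The 6 NZM2410 kidneys came from mice brought into remission with an adenovirus that encodes BAFF-R-Ig (Ad-BAFF-R-Ig), and their age is not in the labels. The 7 NZB/W kidneys came from mice 30 weeks old that had received no treatment and had no proteinuria. Each difference was then set against 3 groups of NZB/W kidneys in remission. Triple therapy (CTX, which is cyclophosphamide, with CTLA4Ig and anti-CD154) had brought 8 of these kidneys to the early stage of remission and 6 to the late stage, and CTLA4Ig with a TACI-Ig adenovirus (Ad-TACI-Ig) had brought 5 to the late stage. All kidneys were labelled whole kidney, each array held 1 kidney, and no sex is labelled. Strain and treatment differ together wherever NZM2410 kidneys are compared with NZB/W kidneys, and against the 30-week kidneys the state of disease differs as well, so that their parts in a difference cannot be told apart. The age of the NZM2410 mice may differ too. The arrays had been corrected for batches that are not named, so that strain and batch cannot be told apart either, and any difference of NZM2410 kidneys may also be one between batches.

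In lupus, B cells and plasma cells make autoantibodies, and immune complexes in the kidney activate complement and recruit cells that carry Fc receptors. BAFF is a survival factor of B cells, and BAFF-R-Ig is a soluble form of its receptor that binds it, whereas TACI-Ig binds both BAFF and APRIL, a related factor that plasma cells use. Tubule cells that are injured switch on genes such as Havcr1, and fibroblasts lay down matrix. In whole kidney RNA, fewer cells of a type and less RNA per cell cannot be told apart.

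Levels are log2 values, so that a difference of 1 is a 2-fold change. The NZM2410 arrays had a wider spread of values than the 30-week arrays, with an SD over probe sets of 2.12 to 2.18 against 1.98 to 2.02 (exact permutation p = 0.00117, two-sided). For this reason a gene was called only where limma gave an adjusted p under 0.05 in the same direction both after quantile normalization of all 32 arrays and on the values as deposited. Values below are quantile-normalized unless stated. Control probe sets for bacterial and phage RNA, of which there were 45, differed between the groups by 0.16 (median) and from -0.47 to 1.15, and 4 of them by at least 2-fold. The difference between 3′ and 5′ probe sets, a sign of RNA quality, was 0.98 in NZM2410 and 0.73 in 30-week kidneys for actin, and -0.17 against 0.02 for Gapdh (exact permutation p = 0.00816 and 0.00117). The part of these in the results was not tested. For late triple therapy, no probe set's group mean was more than 0.0255 away from its mean over 12 other kidneys, those of 30 weeks and TACI-Ig pooled, so the comparison with this group is no separate observation. All 4 comparisons share the NZM2410 kidneys.

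Nephron genes were as the tissue label says. The mean level of the proximal tubule genes was at least 10.6 in each of the 13 kidneys, and that of podocyte genes was 7.82 to 8.07 in NZM2410 and 7.63 to 8.14 in 30-week kidneys. Xist, the RNA that silences an X chromosome in females, was between 9.75 and 10.99 in all 13 kidneys, while Y-linked Sry did not exceed 4.73 and Eif2s3y did not exceed 3.82.

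Between NZM2410 and 30-week kidneys, 3688 of the 15780 genes were called higher in NZM2410 (23.4%) and 3220 lower (20.4%). Most of these differences were small. Only 68 genes were at least 2-fold higher on both scales (0.431%), whereas 156 were at least 2-fold lower (0.989%). The median difference over all genes was 0.01. Genes of antibodies, of fat and of the adrenal gland were among those farthest below zero, and the plot of all genes shows that the lowest of them lay further from zero than any gene that was higher.

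**Figure D1:**
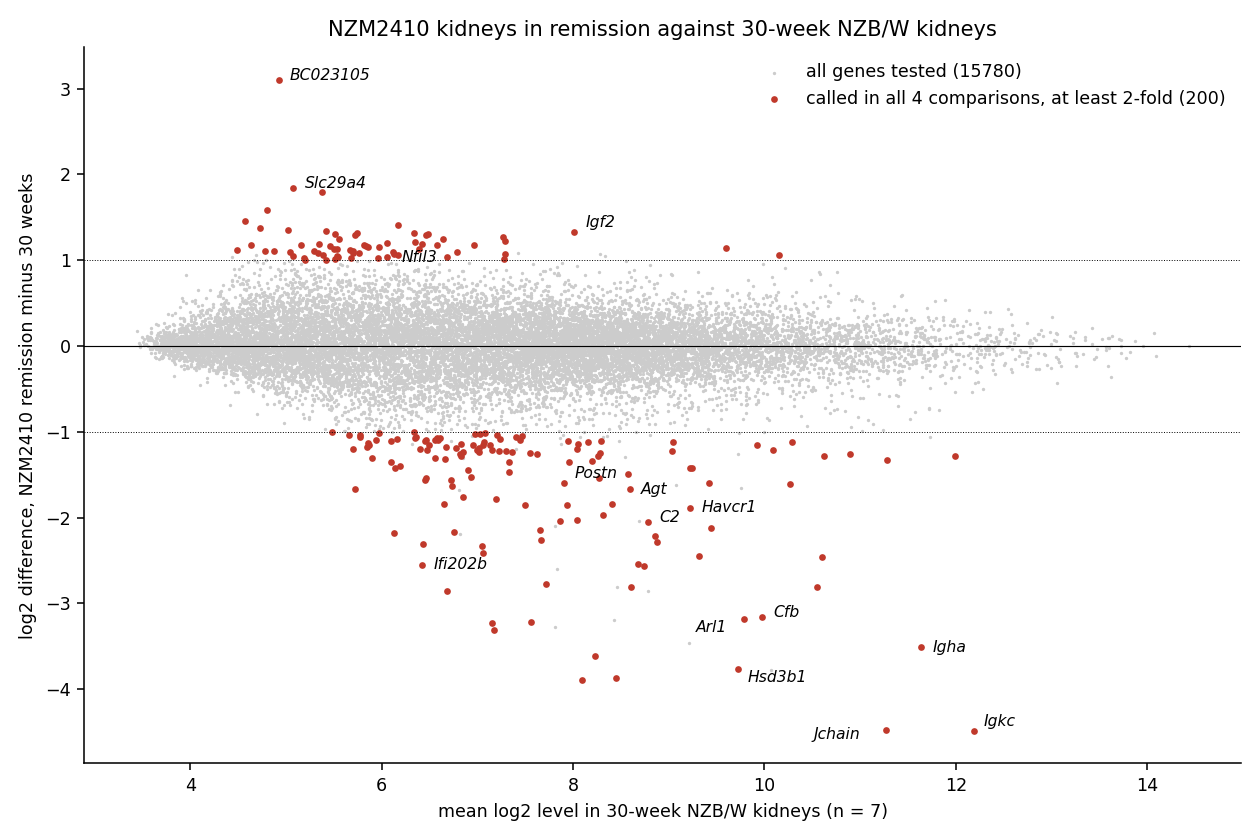
Log2 difference between NZM2410 kidneys in remission (n = 6) and 30-week NZB/W kidneys (n = 7) against the mean log2 level at 30 weeks, 1 point per gene, with dotted lines at a 2-fold change. The 200 genes in red were called in all 4 comparisons and changed at least 2-fold, and the lowest of them, Igkc and Jchain, lie at -4.48, while the highest, BC023105, lies at 3.10.

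Of the 6908 genes called against 30-week kidneys, 6086 (88.1%) were also called in the same direction against early remission, 5942 (86.0%) against late remission after triple therapy and 4971 (72.0%) against late remission after TACI-Ig and CTLA4Ig. A total of 4779 genes held against all 3 groups, of which 2418 were higher (15.3% of genes tested) and 2361 lower (15%). A further 1030 held against 2 groups, 602 against 1 and 497 against none. Over all genes, the comparison with early remission called 24.6% higher and 22.3% lower. That with TACI-Ig and CTLA4Ig called 20.2% and 19.0%, and that with late triple therapy 22.3% and 18.9%. Opposite calls were rare, with 2 genes against the TACI-Ig group and 0 against the others. Without 30-week replicate 2 and NZM2410 replicate 3, which stand apart from their groups, 3947 genes were higher and 3358 lower than at 30 weeks.

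How often a difference held depended on its size and direction. Among higher genes, those under 0.25 held against all 3 groups in 40.7% of cases, those from 0.5 to 1 in 89.5%, and those from 1 to 2 in 95.9%. Lower genes held in 50.5%, 89.2% and 86.1% of the same classes, and the 44 genes lowered by more than 2 held in 77.3%. Most of that loss was against the TACI-Ig group, where 34 of the 44 held, while 43 held against early remission. Adrenal and fat genes, described later, were among those that did not hold. The TACI-Ig group was also the smallest remission group, with 5 kidneys against 8 in early remission. Its replicates 1 and 5 had the highest differences between 3′ and 5′ probe sets of all kidneys. These were 1.5 and 1.29 for actin and 0.42 and 0.37 for Gapdh. Its other kidneys had 0.66 to 0.99 for actin and -0.06 to 0.18 for Gapdh. The part of group size and RNA quality in the lower shares against this group was not tested.

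**Figure D2:**
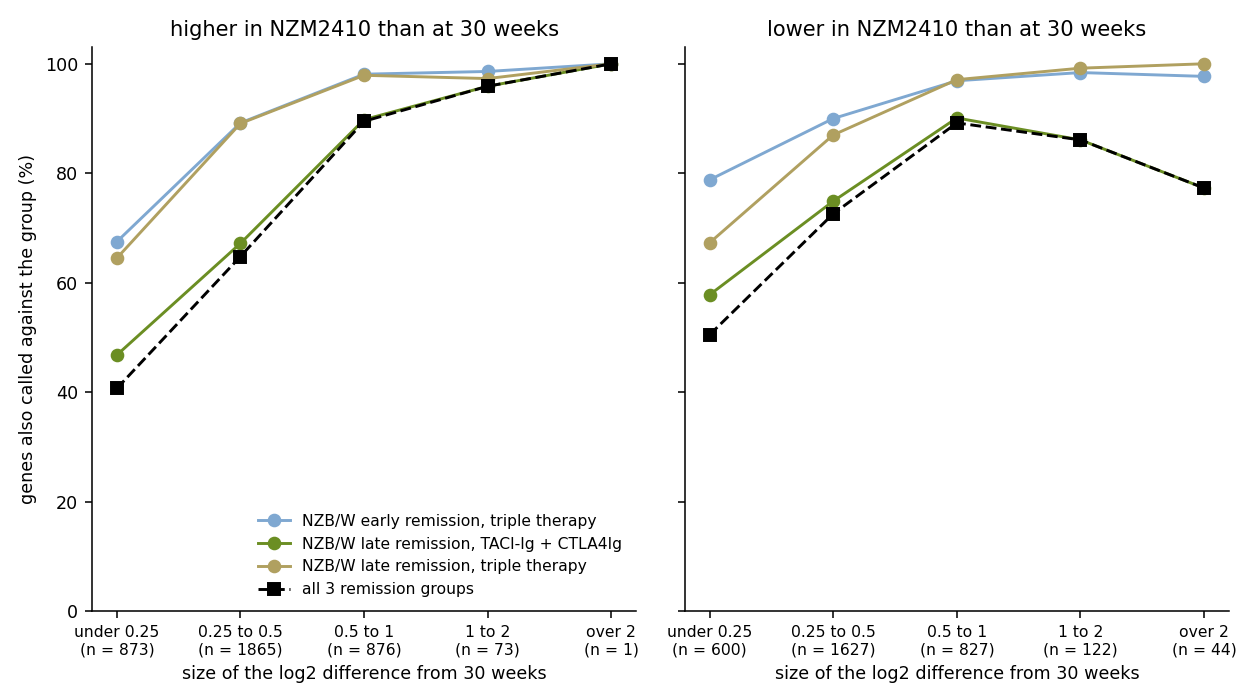
Share of the genes called against 30-week kidneys that were also called in the same direction against each NZB/W remission group, in percent, by the size of the log2 difference from 30 weeks, for higher (left) and lower (right) genes. For lower genes the share against the TACI-Ig group falls from 90.1% at sizes of 0.5 to 1 to 77.3% above 2, while against the early-remission group it stays between 96.9% and 98.4% in the classes above 0.5.

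At least 2-fold changes that held in all 4 comparisons were found for 200 genes, 66 higher (0.418%) and 134 lower (0.849%). For 56 of the higher genes each NZM2410 kidney lay above each of the 26 NZB/W kidneys, and for 98 of the lower genes each lay below. Over all 15780 genes tested, these counts were 1319 and 1315. The 200 genes were picked for their differences between these same kidneys, so that little overlap follows in part from the choice. Without the kidneys that stand apart all 200 genes were still called against 30 weeks, and 199 were with only the 4 NZM2410 kidneys whose sample names carry the letters MP.

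Antibody transcripts showed the widest gap. Igkc, the constant region of kappa light chains, had a lowest, median and highest level of 6.58, 7.59 and 9.33 in NZM2410 kidneys and 11.42, 12.17 and 13.13 in 30-week kidneys. The groups did not overlap, and the difference was -4.48 ± 0.40 (SE; limma adjusted p = 6.12e-07), or 22.4-fold. Group means in the treated NZB/W kidneys were close to or above that at 30 weeks, at 13.23 in early remission and 12.21 after TACI-Ig. The mean of 12.22 in late remission after triple therapy is no separate observation, as stated above.

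Jchain, which links IgA and IgM into polymers, ranged from 6.0 to 8.27 (median 6.43) in NZM2410 and from 10.13 to 13.02 (median 11.15) in 30-week kidneys. It fell by 4.48 ± 0.44 (SE; limma adjusted p = 1.46e-06). Igha, the IgA heavy chain, was 7.41, 7.69 and 9.63 against 11.09, 11.48 and 12.86, a difference of -3.51 (limma adjusted p = 2.15e-06). In all of these, NZM2410 replicates 3 and 5 were the highest of their group and 30-week replicate 2 was the highest of its own, without overlap.

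Heavy chain genes did not move alike. Ighm, the IgM heavy chain, was closer between groups, with a range of 7.48 to 8.81 against 8.60 to 11.18 and a difference of -1.66 ± 0.33 (SE; limma adjusted p = 0.000794), and it held against 2 of the 3 remission groups. Ighg2b was at 4.47 to 4.70 in all NZM2410 kidneys and 6.47 to 9.32 at 30 weeks. The 1 antibody gene called higher was Ighg2c, an IgG2 subclass, at 4.88 to 5.45 against 4.45 to 4.70 (difference 0.53, limma adjusted p = 6.84e-05), and its levels were below 6.07, the mean that bounds the dimmest genes, where sizes are uncertain.

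The 19 immunoglobulin genes on the array are a set picked by symbol after values had been seen. Of them, 18 were lower (94.7%, against 20.4% of all genes) and 16 held in all 4 comparisons. Their median difference was -2.80. Among variable segments, 1 of the Igkv15 family fell by 3.89, Iglv1 fell by 3.87, and Igkv6-15, Ighv1-14 and Igkv12-46 had differences of -3.30, -3.23 and -3.21. A segment of the Igkv1 family had one of -2.85, and Iglc2, a constant region of lambda chains, fell by 2.80. Antibody segments are near-identical copies in places, so that a probe set may read several of them.

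In the list of 15 plasma cell and immunoglobulin genes, which includes Ighm, Igkc and Jchain, 9 were lower (60%, against 20.4% of all genes) and 1 higher, with a median difference of -1.53. Mzb1, a chaperone of antibody assembly, was 6.62 to 6.96 against 7.43 to 9.72 (difference -1.53, limma adjusted p = 0.000612). Prdm1, the regulator of plasma cell fate, fell by 0.64. Sdc1, a surface marker of plasma cells that epithelium also carries, differed by -0.18 and Irf4 by -0.26 without a call. Xbp1, which drives the secretory programme in many cell types, was higher, at 11.19 to 11.78 against 10.68 to 11.37 (difference 0.58, limma adjusted p = 0.00117).

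B cell genes were lower in 10 of 14 cases (71.4%, against 20.4% of all genes) and higher in 0, with a median difference of -0.76. Of the lower ones 8 held in all 4 comparisons. Many lay near the floor, where sizes are uncertain. With the dimmest genes (means under 6.07) left out, 5 of the 14 remained and 2 were lower. Pou2af1, a coactivator of antibody genes, had levels of 3.79, 3.90 and 4.29 in NZM2410 and 5.09, 6.02 and 8.07 in 30-week kidneys. It fell by 2.18 ± 0.38 (SE; limma adjusted p = 0.000272). Ms4a1, which encodes CD20, was at 4.61 to 5.06 against 4.94 to 7.80, so that the groups overlapped, and fell by 1.06 (limma adjusted p = 0.0197). Cd22, an inhibitory B cell receptor, did not overlap (5.66 to 6.12 against 6.37 to 7.48, difference -0.80). Blk, Bank1 and Fcrla fell by 0.92, 0.80 and 0.96. Cr2, Cd72 and Blnk had differences of -0.04, 0.22 and 0.25 that were not called.

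The list of the BAFF and APRIL system also holds TWEAK and its receptor, which are not part of that system. Of its 5 measured members, 3 were lower (60%, against 20.4% of all genes), TWEAK among them, and 0 higher. Tnfrsf13c, the BAFF receptor itself, was 5.33, 5.43 and 5.62 in NZM2410 kidneys and 5.96, 6.14 and 7.10 at 30 weeks, without overlap (difference -0.86 ± 0.14, SE; limma adjusted p = 0.000168). Tnfrsf17, the receptor BCMA of plasma cells, fell by 0.58 (limma adjusted p = 0.00765), and both held in all 4 comparisons. Tnfsf12, or TWEAK, fell by 0.33 and held against 1 remission group. Tnfsf13b, which encodes BAFF, ranged from 6.08 to 6.95 against 6.05 to 7.13 (difference -0.08, limma adjusted p = 0.708), and Tnfrsf12a, the receptor of TWEAK, differed by 0.02, and neither was called.

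**Figure D3:**
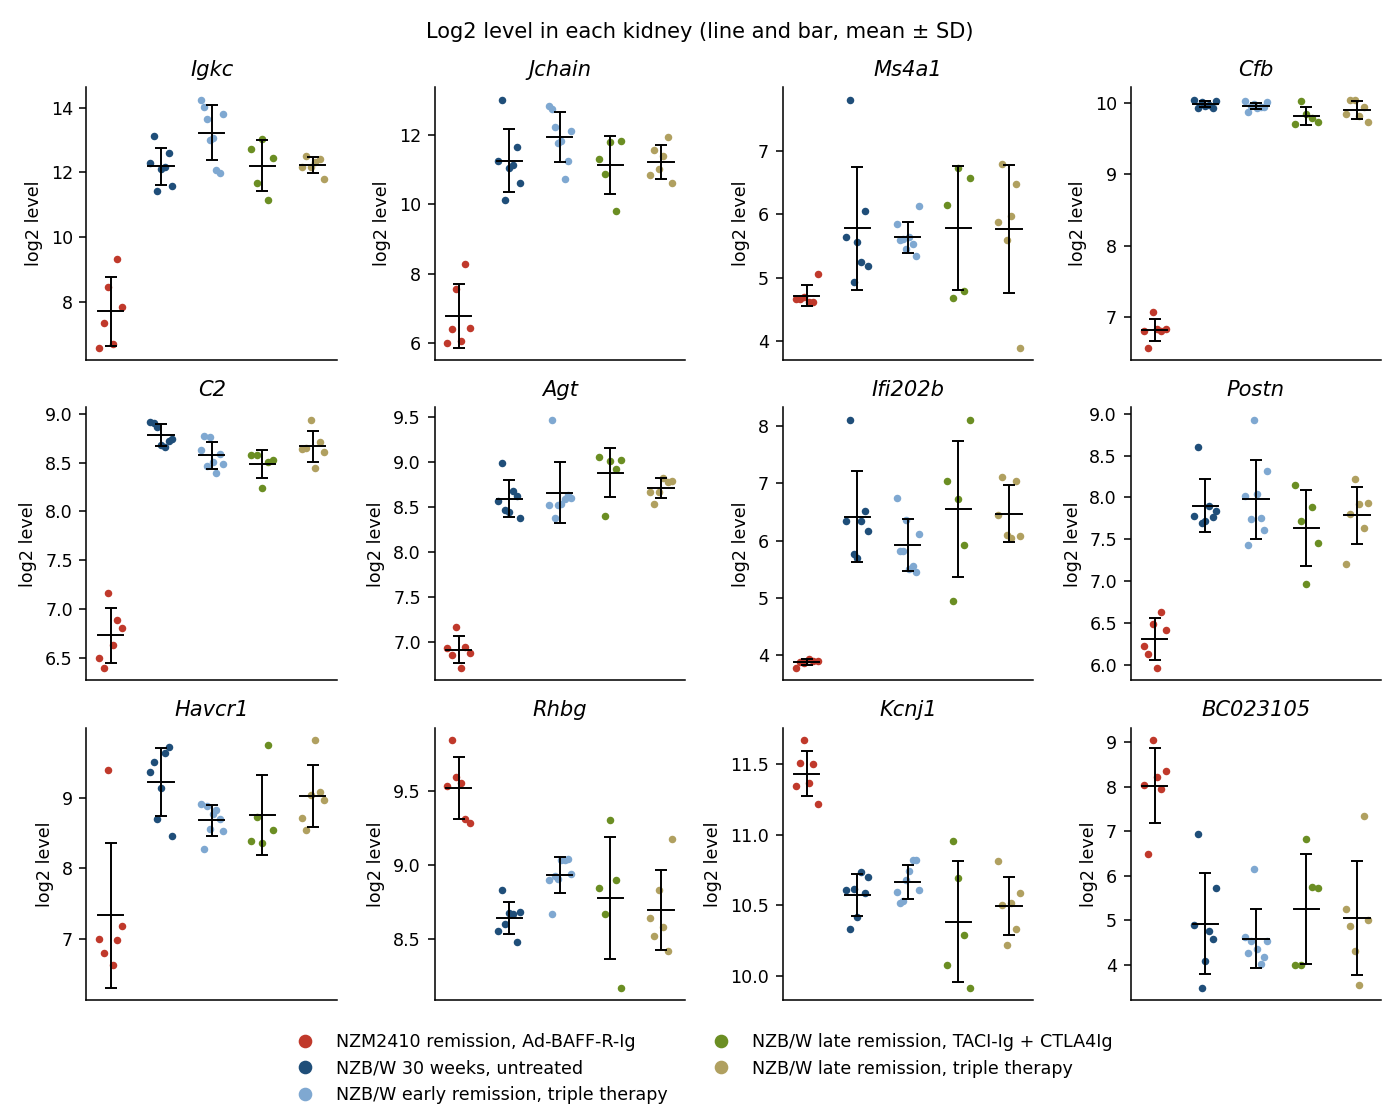
Log2 level of 12 genes in each kidney of the 5 groups, 1 point per kidney, with a line and bar for the mean ± SD. For Igkc, Jchain, Cfb, C2, Agt, Ifi202b and Postn all 6 NZM2410 kidneys lie below all NZB/W kidneys, for Havcr1 the NZM2410 kidney at 9.40 lies among them, and for BC023105 NZM2410 kidneys reach 9.06.

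Lymph node markers, which B cell aggregates or an attached node would both carry, moved with these genes. The list shares Tnfrsf13c with the B cell and BAFF genes. Of its 10 members 6 were lower (60%, against 20.4% of all genes) and 1 was higher. Its mean level was 5.34 to 5.61 in NZM2410 and 5.58 to 6.85 in 30-week kidneys. Glycam1, made by the vessels of lymph nodes, was 4.82 to 5.06 against 5.38 to 9.30 (difference -1.54, limma adjusted p = 0.0163). Cxcl13, the chemokine that gathers B cells, was 5.84 to 6.92 against 6.67 to 9.09 (difference -1.26, limma adjusted p = 0.00358). Their part in the B cell and antibody results was not tested.

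T and NK cell genes were lower in 7 of 23 cases (30.4%, against 20.4% of all genes) and higher in 2 (8.7%, against 23.4%). Cd3e, part of the T cell receptor complex, was at 6.89 to 7.4 against 7.83 to 8.45 without overlap (difference -0.90, limma adjusted p = 3.92e-06), but Cd3d and Cd3g of the same complex differed by -0.05 and 0.37 and were not called. Gzma, a granzyme of cytotoxic cells, fell by 1.0 (limma adjusted p = 2.63e-05). Cd4 was higher, at 6.29 to 6.67 against 5.79 to 6.24 (difference 0.52, limma adjusted p = 3.27e-05), and Foxp3, the marker of regulatory T cells, fell by 0.19 at levels below 4.65. On the values as deposited alone, 13 T and NK genes were lower, as were 4934 of all 15780 genes, so this count depends on the scale.

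Neutrophil genes were lower in 8 of 12 cases (66.7%, against 20.4% of all genes) and higher in 1. Of the lower ones 7 held in all 4 comparisons, while the higher one did not. With the dimmest genes left out, 5 of the 12 remained and 4 were lower. Cxcr2, a chemokine receptor of neutrophils, had levels of 5.73, 6.26 and 6.52 in NZM2410 and 6.84, 7.05 and 7.51 at 30 weeks, without overlap (difference -0.89, limma adjusted p = 9.04e-05). Ltf, Ngp, Mmp8 and Mpo, all granule proteins, fell by 0.53, 0.60, 0.60 and 0.37 from mean levels of at most 6.13 at 30 weeks. Macrophage and dendritic cell genes were called at or below the background, with 4 of 30 lower (13.3%) and 3 higher (10%). Without 30-week replicate 2, 6 were higher, and without NZM2410 replicate 3, 7 were lower.

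Few myeloid genes were called, with 4 of 30 macrophage and dendritic cell genes lower (13.3%) and 3 higher (10%), below the 20.4% and 23.4% over all genes. The 4 lower ones held in all 4 comparisons, and 0 of the higher ones did. The list had 7 members lower without NZM2410 replicate 3 and 6 higher without 30-week replicate 2. Of the Fc receptor genes, 2 of 7 were lower (28.6%) and 0 higher. Fcer1g, the signalling chain of activating Fc receptors, was 7.23 to 8.64 against 8.66 to 10.14 (difference -1.12, limma adjusted p = 0.0013), and Fcgr4, an activating receptor for IgG2, was 5.48 to 6.34 against 6.34 to 8.91 (difference -1.12, limma adjusted p = 0.0115), with 1 NZM2410 kidney just inside the 30-week range. Flt3, the growth factor receptor of dendritic cells, fell by 0.93 (limma adjusted p = 2.46e-07). Tlr2, a sensor of bacterial lipoproteins, rose by 0.64 (limma adjusted p = 0.00705), as did Tlr13 by 0.61 and Gpnmb by 0.46, and the call of Tlr13 was lost without any 1 of 7 kidneys. Csf1r, Cd68 and Adgre1, which define macrophages, had differences of -0.20, -0.50 and -0.62 and were not called.

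Complement genes showed 2 large decreases. Cfb, factor B of the alternative pathway, was 6.57, 6.82 and 7.07 in NZM2410 and 9.93, 9.97 and 10.03 in 30-week kidneys. The SD was 0.16 and 0.04, and the difference of -3.16 ± 0.06 (SE; limma adjusted p = 1.52e-13) is 8.93-fold. C2, its classical pathway counterpart, was 6.40 to 7.17 against 8.66 to 8.91 and fell by 2.05 ± 0.10 (SE; limma adjusted p = 3.69e-09). Group means of the NZB/W remission groups were 9.81 to 9.95 for Cfb and 8.49 to 8.67 for C2, close to those at 30 weeks. The means of late triple therapy among them are no separate observation.

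The other complement genes moved little. Of all 18 members, 5 were lower (27.8%, against 20.4% of all genes) and 1 higher, among them Masp1, a lectin pathway protease, by 0.69. C1qa, C1qb and C1qc, which bind immune complexes, had differences of -0.09, 0.19 and 0.26 and were not called. Cfb and C2 are next to each other in the mouse genome (RefSeq GRCm38.p6). An array reads probe signal, so a strain difference in the bases that a probe matches cannot be told apart from one in the level of the transcript.

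Adjacent genes were looked for among all 200 genes that changed at least 2-fold and held. In this annotation 15752 of the tested genes could be placed, 199 of the 200 among them. Of these 199, 24 had a neighbour among the tested genes that was also one of them, 14 of them immunoglobulin genes. How many would have such a neighbour by position alone was not worked out, so the count is a description. The other 10 formed 5 pairs, named here after their values were seen. Besides Cfb and C2, the pair Nat8 and Nat8f5 fell (by 1.26 and 1.42) and the pair Flywch1 and Flywch2 rose (by 1.18 and 1.15). Slpi and Matn4 moved in opposite directions (-1.11 and 1.16), as did Psg21 and Psg23 (-1.76 and 1.03).

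Chemokine genes were near the background, with 9 of 35 lower (25.7%) and 7 higher (20%). Ccr6, a receptor of B and T cells, was 5.52 to 6.17 against 6.35 to 7.44 (difference -0.86, limma adjusted p = 0.000322). Cxcr6, a receptor of resident T cells, was higher at 5.55 to 7.61 against 4.65 to 5.64 (difference 1.02, limma adjusted p = 0.00787), and Xcl1, which attracts cross-presenting dendritic cells, rose by 0.86 (limma adjusted p = 2.46e-07). Ccr2, the receptor of inflammatory monocytes, rose by 0.81 (limma adjusted p = 0.0373), with NZM2410 replicates spread from 6.53 to 8.54, and held against 1 remission group. Its call was lost without any 1 of 5 kidneys (NZM2410 replicate 4 and 30-week replicates 3, 4, 6 and 7). Ccl8 differed by -1.07 and was not called, with the groups overlapping at 5.90 to 7.96 and 6.90 to 10.21.

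Some genes of antigen presentation were higher. Of 15 MHC class I genes 5 were higher (33.3%, against 23.4% of all genes) and 1 lower (6.67%, against 20.4%). Of 10 MHC class II genes 2 were higher (20%, below the share over all genes) and 0 lower. Among the higher ones, 3 of class I and 1 of class II held in all 4 comparisons, as did 15.3% of all genes. H2-DMb1, which helps load peptide on class II, was 7.13, 7.66 and 8.37 in NZM2410 and 5.66, 6.23 and 7.79 at 30 weeks (difference 1.32 ± 0.29, SE; limma adjusted p = 0.00153). The groups overlapped only through 30-week replicate 2, and without this kidney 5 class II genes were higher. H2-K1 rose by 0.91, H2-Bl by 0.89 and the peptide transporter Tap2 by 0.57. H2-Aa and Cd74 had differences of 0.52 and 0.53 that were not called. Class I and II genes are polymorphic and alike, and their probe sets may read more than 1 of them.

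Interferon-inducible genes had 8 of 36 members higher (22.2%, close to the background) and 3 lower (8.33%). Iigp1, an interferon-induced GTPase, was 8.46 to 10.29 against 7.51 to 10.11 and rose by 1.07 (limma adjusted p = 0.022), but held against only 1 remission group and lost its call without NZM2410 replicate 3. Oas1b, Oas2 and Oas3, sensors of double-stranded RNA, fell by 0.65, 0.33 and 0.52, and held in all 4. Irf7, Mx1 and Isg20 differed by -0.04, 0.16 and -0.06 without a call. The count rested on single kidneys. It was 17 higher without 30-week replicate 2 and 4 higher without NZM2410 replicate 3.

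Among the interferon p200 genes, which lie in a cluster on a chromosome known for lupus loci, Ifi202b was 3.78 to 3.94 in all NZM2410 kidneys and 5.70, 6.34 and 8.10 at 30 weeks, without overlap. It fell by 2.55 ± 0.29 (SE; limma adjusted p = 5.12e-06). Aim2, a sensor of cytosolic DNA, was 4.48 to 4.81 against 5.65 to 6.37 and fell by 1.30 (limma adjusted p = 1.15e-07). Their relative Ifi203 rose by 0.63 (limma adjusted p = 0.00024), while Ifi204, Ifi207 and Ifi209 differed by 0.21, -0.23 and -0.16 and were not called. Of the SLAM family of lymphocyte receptors, 3 of 10 were lower (30%, against 20.4% of all genes). These were Slamf6 by 0.81, Slamf7 by 0.57 and Slamf1 by 0.44.

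Few tubular injury genes were called. Havcr1, known as KIM-1 and switched on in injured proximal tubule, was 6.63, 6.99 and 9.40 in NZM2410 and 8.46, 9.36 and 9.72 at 30 weeks. The groups overlapped only through NZM2410 replicate 3, and the difference was -1.89 ± 0.38 (SE; limma adjusted p = 0.00076), held in all 4 comparisons. Il1f6, an interleukin 36 cytokine of injured tubules, was 5.6 to 6.34 against 6.14 to 6.61 and fell by 0.43 (limma adjusted p = 0.00371). Lcn2, the iron-binding lipocalin of injured tubules and neutrophils, ranged from 6.0 to 10.09 and from 5.84 to 8.56 (difference 0.69, limma adjusted p = 0.368). In the whole list 4 of 27 genes were lower (14.8%, against 20.4% of all genes) and 2 higher (7.41%, against 23.4%). The number higher was 0 without NZM2410 replicate 6 or 30-week replicate 1 or 6 and 1 without NZM2410 replicate 2 or 3 or 30-week replicate 3, 4, 5 or 7. The median of the list had no stable sign, at -0.03 after quantile normalization and 0.04 as deposited. Fga, a fibrinogen chain, fell by 0.49 from 30 weeks and was called against no remission group.

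Matrix genes were lower in 13 of 35 cases (37.1%, against 20.4% of all genes) and higher in 1, with a median difference of -0.40. Postn, the matrix protein periostin, had levels of 5.96, 6.32 and 6.63 in NZM2410 and 7.69, 7.78 and 8.60 at 30 weeks, without overlap (difference -1.59 ± 0.14, SE; limma adjusted p = 5.75e-07). Lum, a collagen-binding proteoglycan, fell by 1.14 (limma adjusted p = 0.000204) and Dcn by 0.72. Col3a1, a fibrillar collagen, was 7.80 to 10.55 against 9.16 to 10.70 and fell by 1.0 (limma adjusted p = 0.0388), and Acta2, the actin of smooth muscle and myofibroblasts, fell by 0.82 (limma adjusted p = 0.00119). Col1a1, Col1a2 and Fn1 differed by -0.70, -0.66 and -0.61 and were not called. The call of Col3a1 was lost without any 1 of 10 kidneys, NZM2410 replicates 3 and 6 and 30-week replicate 4 being the exceptions.

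Only 5 of these 13 genes held in all 4 comparisons, namely Postn, Col15a1, Eln, Thbs2 and Mmp7. The mean level of the list was 8.44 in NZM2410 replicate 3, above all 30-week kidneys (8.24 to 8.36), and 7.42 to 8.16 in the other 5. Without this replicate 19 genes were lower, and without NZM2410 replicate 4, 8 were. Fat tissue is rich in matrix, and its marker genes, given below, moved in the same direction. Their part was not tested.

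**Figure D4:**
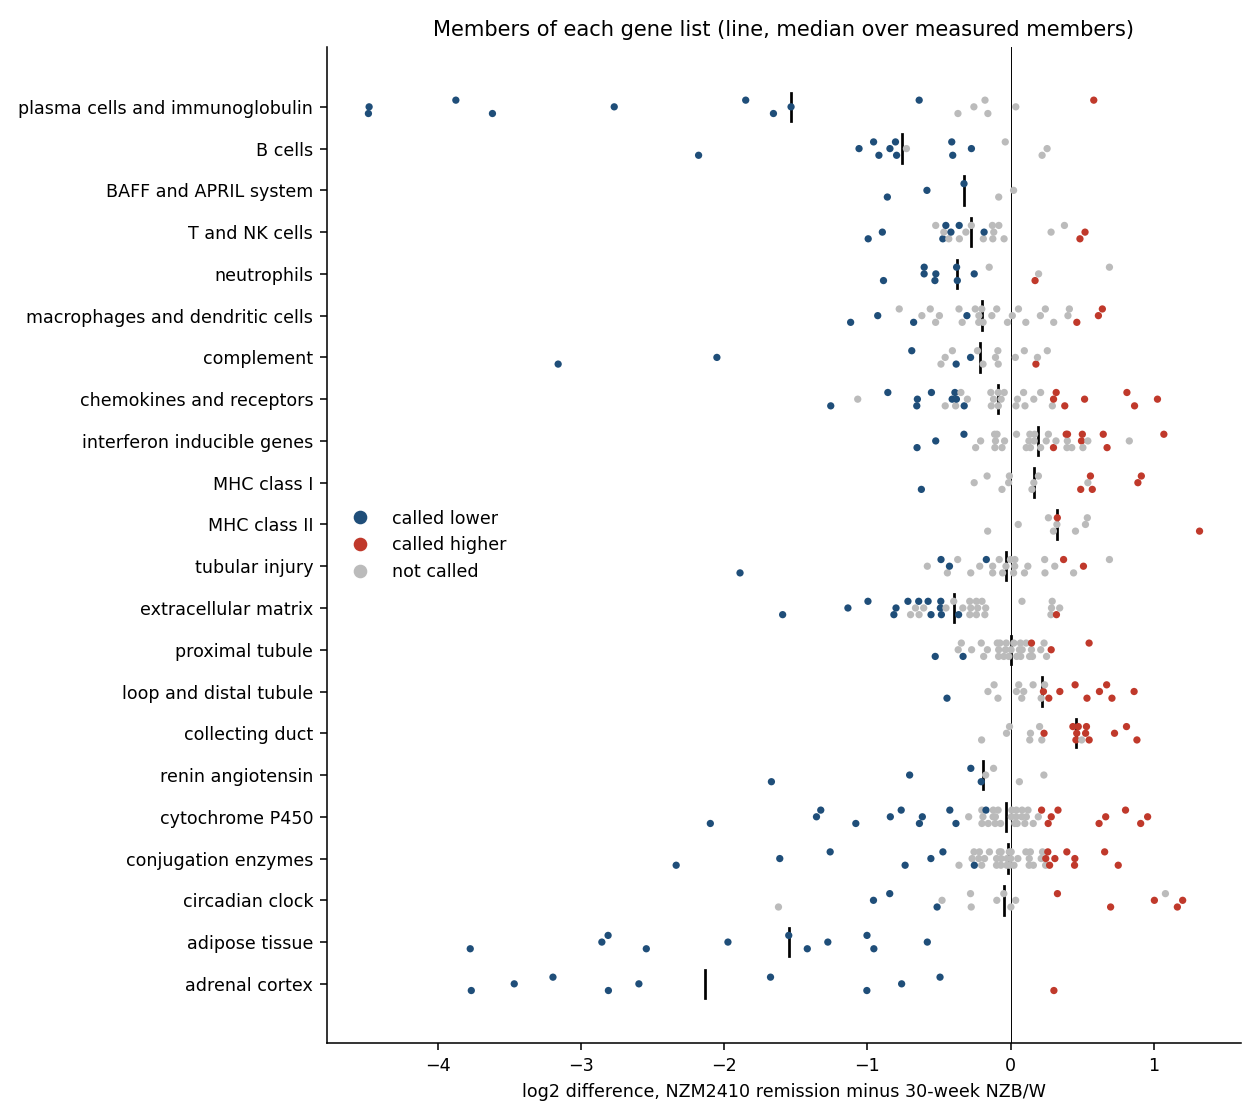
Log2 difference of each measured member of 22 gene lists between NZM2410 and 30-week kidneys, 1 point per gene, blue for called lower, red for called higher and grey for not called, with a black line at the list's median. The medians of the adrenal cortex (-2.14), fat (-1.55) and plasma cell (-1.53) lists lie farthest to the left, and that of the collecting duct list (0.455) farthest to the right.

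Genes of the distal nephron were called higher than at 30 weeks more often than all genes were. In the collecting duct list 11 of 19 members were higher (57.9%, against 23.4% of all genes) and 0 lower, with a median of 0.455, and 8 held in all 4 comparisons. Rhbg, an ammonia transporter, was 9.28, 9.55 and 9.85 in NZM2410 and 8.48, 8.67 and 8.83 at 30 weeks, without overlap (difference 0.88 ± 0.08, SE; limma adjusted p = 1.11e-06). Atp6v1b1, a proton pump subunit of intercalated cells, rose by 0.81 (9.34 to 9.87 against 8.11 to 9.09) and Foxi1, the regulator of these cells, by 0.55. Among genes of principal cells, Aqp2, the water channel under vasopressin control, was 10.54 to 11.30 against 9.49 to 10.46 (difference 0.72, limma adjusted p = 0.00125), held against 2 remission groups, and Scnn1g, a sodium channel subunit, rose by 0.43, whereas Scnn1a and Scnn1b differed by -0.20 and 0.14 and were not called.

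In the loop of Henle and distal tubule, 9 of 20 genes were higher (45.0%, against 23.4% of all genes) and 1 lower (5%, against 20.4%). Only 3 of the 9 higher genes held in all 4 comparisons, as did the lower one. A count of 3 among the 20 listed is near the 15.3% of all genes that were higher in all 4. Kcnj1, the potassium channel ROMK, was 11.21, 11.43 and 11.67 against 10.33, 10.61 and 10.74 and rose by 0.86 ± 0.08 (SE; limma adjusted p = 8.66e-07). Slc12a1, the sodium potassium chloride cotransporter of the thick limb, rose by 0.34 with no overlap (13.29 to 13.41 against 12.93 to 13.09), and Casr, the calcium-sensing receptor, by 0.67. Pvalb and Calb1, calcium-binding proteins of the distal convoluted tubule, rose by 0.71 and 0.53 but held against 1 remission group each. Cldn19, a tight junction protein, fell by 0.44. Umod, the most abundant protein of the thick limb, differed by 0.09 and was not called.

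By contrast, proximal tubule genes had 3 of 33 members higher (9.09%) and 2 lower (6.06%), below the share over all genes. Mme, the peptidase neprilysin, rose by 0.55 (limma adjusted p = 0.00407) and Anpep, another brush border peptidase, fell by 0.53, while Slc34a1 and Lrp2 differed by -0.08 and 0.14 without a call. On the values as deposited, 9 proximal tubule genes were higher. Without NZM2410 replicate 3, 5 were higher, and without 30-week replicate 2, 4 were lower. Podocyte genes had 1 of 17 higher and 2 lower, and Nphs1, which encodes nephrin, was 6.86 to 7.29 against 6.21 to 7.28 (difference 0.06, limma adjusted p = 0.76). Endothelial genes had 6 of 20 higher (30.0%, against 23.4% of all genes) and 3 lower (15%, against 20.4%).

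The renin-angiotensin list had 4 of 8 members lower (50%, against 20.4% of all genes) and 0 higher. Agt, which encodes angiotensinogen, had levels of 6.72, 6.91 and 7.17 in NZM2410 and 8.38, 8.57 and 8.99 at 30 weeks, without overlap, and fell by 1.67 ± 0.09 (SE; limma adjusted p = 7.47e-09), or 3.18-fold. Means in the NZB/W remission groups were 8.66 to 8.88, and that of late triple therapy is no separate observation. Cma1, a mast cell chymase that can make angiotensin II, fell by 0.71 (limma adjusted p = 1.2e-05). Ace and Agtr1a differed by 0.06 and -0.17 and were not called. Fat tissue also makes angiotensinogen, and the fat genes described later were lower in NZM2410 kidneys as well, with a median difference of -1.55. Their part in the difference of Agt was not tested.

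Cytochrome P450 genes were called in both directions near the background, with 11 of 44 lower (25%) and 9 higher (20.5%). Cyp2c29, which makes epoxides of fatty acids, was 5.75 to 6.24 against 6.88 to 7.93 (difference -1.36, limma adjusted p = 1.84e-06), and Cyp2e1, an oxidase of ethanol and other small molecules, fell by 1.33 (limma adjusted p = 2.82e-05). Vitamin D enzymes moved in opposite directions. Cyp24a1, which inactivates vitamin D, rose by 0.96 (10.33 to 11.65 against 9.21 to 10.75, limma adjusted p = 0.00746), and Cyp27b1, which activates it, fell by 0.62 (limma adjusted p = 0.00783). Cyp51, of cholesterol synthesis, rose by 0.80 and Cyp3a13 by 0.91.

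Conjugation enzymes had 7 of 46 lower (15.2%, against 20.4% of all genes) and 9 higher (19.6%, against 23.4%). Mgst2, a glutathione transferase of membranes, was 4.60 to 4.79 in NZM2410 and 5.93, 7.37 and 7.78 at 30 weeks (difference -2.34, limma adjusted p = 4.01e-06). Sult1a1, a sulfotransferase of phenols, fell by 1.61 (8.24 to 8.97 against 9.92 to 10.58, limma adjusted p = 2.45e-07), and Nat8, which completes mercapturic acids, fell by 1.26. Gsta3 rose by 0.75 (limma adjusted p = 0.000356).

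Genes of fatty acid oxidation had 3 of 38 lower (7.89%, against 20.4% of all genes) and 5 higher (13.2%, against 23.4%). The 3 lower ones were among the larger decreases measured. Without 30-week replicate 2, 6 were lower, and without 30-week replicate 3 or 6, 5 were. Acsm3, a medium-chain acyl-CoA synthetase, fell by 1.45 (5.21 to 5.79 against 6.75 to 7.10, limma adjusted p = 4.37e-08), Decr1, a dienoyl-CoA reductase of mitochondria, by 1.29 and the fat cell gene Fabp4 by 1.28. Ppara, the regulator of this pathway, rose by 0.58 (limma adjusted p = 0.0167). In oxidative phosphorylation 10 of 32 genes were higher (31.2%, against 23.4% of all genes) and 1 lower. Differences were no larger than 0.40 among the higher ones. Here the scale mattered, since 25 were higher on the values as deposited, and 6 were without NZM2410 replicate 4. Ndufv1, a subunit of complex I, fell by 0.73 (10.83 to 11.12 against 11.65 to 11.85, limma adjusted p = 6.17e-08), and Uqcrc2 of complex III rose by 0.40.

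Kidney genes that are higher in male mice were lower in 5 of 9 cases (55.6%, against 20.4% of all genes). These were Acsm3 by 1.45, Cyp2e1 by 1.33, Slc7a13 by 0.77, Cyp4a12a by 0.76 and Slco1a1 by 0.34. Of the 5, 4 held in all 4 comparisons. The call of Cyp4a12a was lost without NZM2410 replicate 1, 3 or 4 or 30-week replicate 5. Those higher in females had 1 of 5 members higher. Among transporters of organic ions, 5 of 30 were lower (16.7%, against 20.4% of all genes) and 3 higher (10%, against 23.4%). Of the higher ones, Slc16a1, a lactate carrier, rose by 0.88 and Slc22a7, an anion transporter, by 0.60.

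Circadian clock genes were called in both directions, with 5 of 17 higher (29.4%, against 23.4% of all genes) and 3 lower (17.6%, against 20.4%). Npas2, a partner of Arntl in the activating arm, was 5.91, 6.73 and 7.16 in NZM2410 and 5.25, 5.34 and 6.12 at 30 weeks (difference 1.16 ± 0.18, SE; limma adjusted p = 9.36e-05). Nfil3, a repressor of clock output, rose by 1.2 (6.25 to 8.17 against 5.61 to 6.75, limma adjusted p = 0.00458), and Clock by 0.70. Nr1d1 and Nr1d2, which repress Arntl, fell by 0.96 and 0.84 (limma adjusted p = 0.0122 and 0.0232) with overlap. The call of Nr1d2 was lost without any 1 of 8 kidneys, and neither gene was called with only the 4 NZM2410 kidneys whose sample names hold the letters MP.

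Arntl and Dbp lay in high and low kidneys in both groups. Arntl was above 9 in NZM2410 replicates 2, 3, 5 and 6 and at 6.52 in replicate 4, and at 30 weeks it was 9.07 in replicate 5 and 6.71 in replicate 4. Dbp, an output gene of the opposite phase, was 6.18 to 6.88 in the same 4 NZM2410 kidneys and 9.81 in replicate 4. Their differences of 1.08 and -1.62 were not called (limma adjusted p = 0.0695 and 0.0625). The number of clock genes called lower was 5 without NZM2410 replicate 4 or 30-week replicate 5 or 6, and 1 without NZM2410 replicate 3, 5 or 6 or 30-week replicate 1, 3, 4 or 7. It was 0 in the 4 kidneys with MP names alone. The hour at which a kidney was taken is not in the labels, and its part was not tested.

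Nr1d1 and Nr1d2 bind a short element, AGGTCA after an A and T rich stretch, in genes that they repress. The heptamer TAGGTCA was searched on both strands of the window from 250 bases before to 50 after each gene start (RefSeq, GRCm38.p6). It was present in 2.97% of 27025 genes and in 2 of the 15 measured clock genes that had a window. They are shown because both genes had higher means in NZM2410 kidneys, with Nfil3 called and Arntl not, and the heptamer or its reverse complement is in capitals.
Arntl, chr7:113207529-113207558, plus strand: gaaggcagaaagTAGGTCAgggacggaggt
Nfil3, chr13:52981034-52981063, minus strand: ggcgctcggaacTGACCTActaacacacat
The match starts 30 bases after the gene start in Arntl and 12 bases before it in Nfil3. Such a match is a description of the letters and does not show that a factor binds there.

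Genes of fat were lower in 11 of 11 cases, against 20.4% of all genes. Their median difference was -1.55, and 7 held in all 4 comparisons. Adipoq, the hormone adiponectin of fat cells, was 4.47, 6.24, 4.07, 5.44, 8.84 and 8.72 in NZM2410 replicates 1 to 6 and 9.41 to 10.63 at 30 weeks. It fell by 3.77 ± 0.70 (SE; limma adjusted p = 0.000393), and the 2 kidneys with the highest values are those whose sample names carry the letters VO. Ucp1 and Cidea, of brown fat, and Lep, the hormone leptin, had differences of -2.85, -2.54 and -1.0, and Car3, a carbonic anhydrase of fat and muscle, was 6.71 to 9.35 against 10.25 to 10.90 (difference -2.81, limma adjusted p = 5.32e-05). The mean of the list was 6.34 to 8.06 in NZM2410 and 8.43 to 9.18 at 30 weeks. Adipoq and Lep are made by fat cells. Whether they came from fat attached to the kidney was not tested, nor was the part of fat in other results.

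Adrenal cortex genes were lower in 9 of 10 cases (90%, against 20.4% of all genes) and higher in 1. Only Hsd3b1, an enzyme of steroid synthesis, held in all 4 comparisons. It was 5.84 to 6.11 in NZM2410 and 6.22, 10.60 and 11.39 at 30 weeks (difference -3.77 ± 0.73, SE; limma adjusted p = 0.000571). The mean of the list was 5.72 to 5.84 in NZM2410 kidneys, 8.33 to 8.61 in 5 of the 30-week kidneys, and 6.12 and 5.74 in 30-week replicates 4 and 7. It was 5.68 to 5.75 in the TACI-Ig group. Cyp21a1, Cyp11b1 and Star, also of steroid synthesis, fell by 3.47, 3.20 and 2.81 from 30 weeks and held against 2 remission groups. Adrenal medulla genes were lower in 5 of 5 cases, and Chga, of catecholamine granules, was 4.47 to 4.75 against 4.81 to 7.81. Cyp2f2 was 5.52 to 5.90 in NZM2410 and 6.03 and 6.10 in 30-week replicates 4 and 7 against 8.32 to 8.70 in the other 5, the same kidneys as the adrenal genes.

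**Figure D5:**
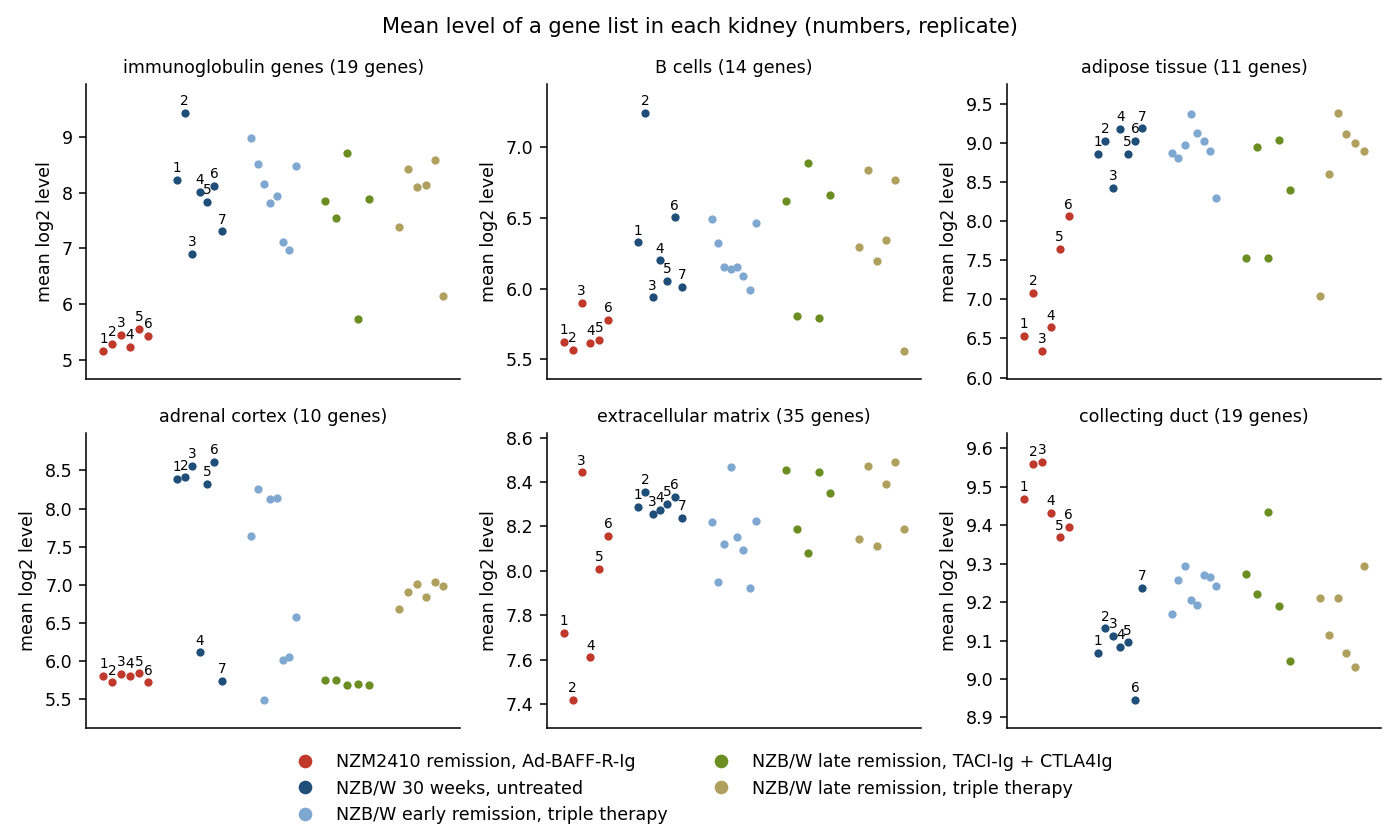
Mean log2 level of 6 gene lists in each kidney of the 5 groups, 1 point per kidney, with replicate numbers beside the NZM2410 and 30-week kidneys. Immunoglobulin genes lie at 5.16 to 5.55 in NZM2410 and 6.90 to 9.43 at 30 weeks, fat genes are highest in NZM2410 replicates 5 and 6, adrenal genes are low in 30-week replicates 4 and 7, and collecting duct genes lie at 9.37 to 9.56 in NZM2410 against 8.95 to 9.24 at 30 weeks.

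Of the remaining genes with the largest changes that held, Arl1, a small GTPase of the Golgi, was 6.37, 6.56 and 7.06 in NZM2410 and 9.16, 9.89 and 10.07 at 30 weeks. It fell by 3.18 ± 0.14 (SE; limma adjusted p = 7.79e-10). BC023105 was the gene with the largest increase, at 6.49, 8.14 and 9.06 against 3.48, 4.76 and 6.94, and rose by 3.10 ± 0.49 (SE; limma adjusted p = 0.000104), with 30-week replicate 2 above the lowest NZM2410 kidney.

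Slc29a4, a transporter of monoamines, rose by 1.84 ± 0.06 (6.82 to 7.12 against 4.91 to 5.22, SE; limma adjusted p = 1.32e-10) and Slc6a7, a proline transporter, by 1.79 (7.04 to 7.43 against 5.10 to 5.67). Igf2, the growth factor, was 8.72, 9.39 and 9.93 against 7.86, 8.03 and 8.21 (difference 1.33, limma adjusted p = 1.9e-05), without overlap. Lats1, a kinase of the Hippo pathway, rose by 1.34, the splicing regulator Ptbp3 by 1.30, the orphan receptor Gpr85 by 1.42 and Coch, of extracellular matrix in the ear, by 1.31. Nrn1l, Enox1, Ribc2, Gm9112, Zfp958 and Krt72 rose by 1.59, 1.45, 1.37, 1.35, 1.31 and 1.31, from levels of at most 5.74 on average at 30 weeks.

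Genes called against 30-week kidneys alone numbered 85, of which 45 were higher and 40 lower, with no comparison with a remission group passing on either scale. Their differences were modest. Cxcl14, a chemokine of epithelium, was 5.83 to 6.62 against 6.36 to 6.97 and fell by 0.55 (limma adjusted p = 0.00219). Ttr, a carrier of thyroid hormone and retinol, fell by 0.53, Dusp6, a phosphatase of ERK, by 0.51, Csf2ra, a cytokine receptor of myeloid cells, by 0.49, and Fga, Rhebl1, Fhl2 and Lrg1 by 0.49, 0.47, 0.45 and 0.44. Hspa1a, a heat shock protein, rose by 0.57 (8.23 to 9.78 against 7.82 to 8.43, limma adjusted p = 0.0324), followed by Acp7 by 0.44, Psca by 0.38, Zdhhc21 by 0.34, Cdr2 by 0.33, Sult1b1 and Hs6st3 by 0.31 and Spag5 by 0.30. Many of these calls were narrow. With 1 kidney left out, Lrg1 and Fhl2 were lost for 9 of the 13 kidneys, Hs6st3 for 10, Ttr and Zdhhc21 for 7, Hspa1a and Psca for 5, Cdr2 for 3, Csf2ra for NZM2410 replicates 2 and 5 and Dusp6 for NZM2410 replicate 2.

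For these 85 genes the NZB/W remission groups were not called against 30 weeks either. Over all genes, the 3 NZB/W remission groups had 0 genes called against 30-week kidneys by limma, on either scale. For late triple therapy this 0 is no separate observation. Its mean for each probe set was within 0.0255 of an average that already contains the 30-week kidneys. The sample names of 30-week replicate 6 and early-remission replicate 1 hold the same animal code, so that these groups may not be independent. At an unadjusted p under 0.05, 1283 genes differed in early remission, 2871 after TACI-Ig and 45 in late triple therapy. The 45 are fewer than chance gives on average at this threshold, and the test of that group cannot show whether it changed. A gene called against 30 weeks and not against remission is thus not shown to have changed in NZB/W remission. The mean of Fga was 9.13 in NZM2410, 9.62 at 30 weeks, 9.17 in early remission, 9.03 after TACI-Ig and 9.39 in late remission after triple therapy, and that of Hspa1a was 8.72, 8.15, 8.5, 8.73 and 8.38 in the same order.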

How the data were processed

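RNA of 32 whole kidneys was hybridised to Affymetrix arrays, 1 kidney per array. The deposited values are log2 expression levels made by the authors with RMA (per the labels), with all arrays normalized and batch-corrected together. The batches and the version of RMA are not given in the sources used here. Number of value columns left out: 0. There were 16539 probe sets. After 64 controls and 695 probe sets with no name were set aside, 15780 remained, each of a different gene, and were tested. The number of kidneys in each group, and not a read depth, limits precision.

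Groups followed the labels. Values were quantile-normalized over all 32 arrays, and NZM2410 kidneys were compared with each NZB/W group in a separate fit with limma 3.58.1 (lmFit, eBayes, R 4.3.3), two-sided, with Benjamini-Hochberg adjustment over all 15780 genes. A call needed an adjusted p under 0.05 in the same direction on both scales, quantile-normalized and as deposited. A difference held against a remission group where it was called there in the same direction. The labels do not say that every kidney came from a different mouse, and the names of 30-week replicate 6 and early-remission replicate 1 carry the same animal code, so p-values measure the spread between these kidneys. The fit was tested on simulated shifts. Single values were tested with the exact permutation test of scipy 1.17.1.

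Genes were named by these rules: the 15 highest and 15 lowest differences among genes held in all 4 comparisons, the 8 highest and 8 lowest among genes called against 30 weeks alone, and measured members of gene lists that include Lcn2, Il1f6 and Havcr1. The members and lists were chosen with earlier results of these data known. Alternatives were the scaling, a joint fit, a filter on dim genes, array weights, the variance prior, the replicate block, kidneys left out and the threshold of the study. RefSeq promoter windows are of assembly GRCm38.p6.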

Additional observations from a re-analysis of the deposited data

Results flagged for a closer look

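Kidneys that stood apart from the others of their group (the gap to the nearest kidney, over the range of the group, was above Dixon's 95% critical value) were found in 15 of the 88 groups of values examined, where chance gives about 1 in 20. Of these, 7 concerned 30-week replicate 2. It was the highest 30-week kidney for Igha at 12.9 (others 11.1 to 11.7), for Igkv12-46 at 10.2 (6.2 to 7.54), and for H2-DMb1 at 7.79 (5.66 to 6.46), and the lowest for Lats1 at 4.72 (5.41 to 5.62). It was also the highest for the mean level of the complement genes at 8.14 (7.48 to 7.75), of the macrophage and dendritic cell genes at 8.05 (6.72 to 7.13) and of the tubular injury genes at 8.34 (7.74 to 7.98).

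NZM2410 replicate 3 had the highest Havcr1 of its group at 9.40 (others 6.63 to 7.18) and the highest level of a segment of the Igkv1 family at 4.46 (3.62 to 3.79). The other flags were spread over kidneys. Among NZM2410 kidneys, replicate 1 had Igkv6-15 at 3.61 (3.89 to 3.96), replicate 2 Arl1 at 7.06 (6.37 to 6.6), replicate 4 Slc6a7 at 7.43 (7.04 to 7.18) and replicate 6 Iglc2 at 6.77 (5.49 to 5.76). At 30 weeks, replicate 5 had Nrn1l at 4.65 (4.78 to 4.85) and replicate 3 a mean level of fat genes of 8.43 (8.86 to 9.18).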

How the results depend on the processing

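Of 458 genes rechecked under each alternative (those called among the gene lists, the genes held at least 2-fold and the genes named by rule), 360 kept their call under all of them, 63 lost it with some kidney left out, and 0 reversed. With the thresholds of the study (adjusted p up to 0.001, with 1.4-fold as the least rise and a ratio of 0.7 as the least fall), 794 genes were higher and 695 lower than at 30 weeks, 861 and 768 than in early remission, 773 and 758 than after TACI-Ig, and 794 and 681 than in late triple therapy. On the deposited values alone, lower genes numbered 4934 (30 weeks), 4875 (TACI-Ig), 4840 (late triple therapy) and 4231 (all 4). Centring each array on its median gave 5854, 6391 (early remission), 5641, 5588 and 4941 lower, and 38.6% of calls against 30 weeks were then higher, against 53.4% in the report. Leaving out the dimmest genes gave 1904, 2060, 1713, 1808 and 1334 lower, from fewer genes tested. Quantile values alone called 4336 and 3880 against 30 weeks, an alternative chosen after seeing the data.

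With 1 kidney left out at a time, 3440 to 3886 genes were higher and 3024 to 3400 lower than at 30 weeks. The ranges were 3639 to 3924 and 3325 to 3530 for early remission, 2863 to 3401 and 2719 to 3120 for TACI-Ig, 3265 to 3610 and 2740 to 3059 for late triple therapy, and 2190 to 2423 and 2170 to 2360 for all 4. A fit with the replicate number as a block gave 3539 higher and 2974 lower. The correlations of same-numbered kidneys ran from -0.21 to 0.24. They were not set against those of kidneys with different numbers, so whether the numbers pair the kidneys was not tested. Counts of list members moved by over 1.5 times in 215 cases and did not in 1671.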

Other observations

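Immediate early genes, which respond to stimuli within minutes and so also to handling of tissue, had 6 of 17 members higher (35.3%, against 23.4% of all genes) and 2 lower (11.8%), with a median difference of 0.208. The number lower was 1 without NZM2410 replicate 2, and the number higher was 2 with only the NZM2410 kidneys whose sample names hold the letters MP. Jun rose by 0.66 (8.85 to 9.71 in NZM2410 against 8.11 to 8.89 at 30 weeks, limma adjusted p = 0.00122), while Egr3 fell by 0.55 without overlap (6.86 to 7.12 against 7.40 to 7.63). Cell cycle genes had 4 of 23 members higher (17.4%) and 3 lower (13%), with 2 higher and 5 lower without NZM2410 replicate 3, and 5 lower without 30-week replicate 3. Top2a, the topoisomerase of dividing cells, rose by 0.68 and Plk1, a mitotic kinase, by 0.45, while Tyms, of thymidylate synthesis, fell by 0.85 (limma adjusted p = 1.24e-07) and Ube2c, of the anaphase complex, fell by 0.73.

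Among markers of other tissues, pancreas genes had 4 of 10 members lower (40%, against 20.4% of all genes) and 1 higher, with Cpb1, a digestive carboxypeptidase, lower by 0.74 at levels below 5.80. Red blood cell genes had 1 of 4 higher, which was Bpgm, and skeletal muscle genes 1 of 9, which was Actn3 (0.55, limma adjusted p = 1.74e-06). The female-biased gene that was higher was Akr1c18 (0.53), a steroid reductase. In the endothelium, Tek, the angiopoietin receptor, rose by 0.50 and Ehd3, of glomerular endothelium, fell by 0.49.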
